A study of Mus musculus with 9 samples.

Results

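The genes described here are 10 members of the BCL2 family: Bcl2, Bcl2l1, Mcl1, Bcl2a1b and Bcl2a1d, whose proteins oppose apoptosis, Bcl2l11, Bbc3 and Pmaip1, which encode BH3-only proteins, and the effectors Bax and Bak1. They were chosen by symbol from the 20732 genes of the deposited count table, and each of the 10 had a row there. All 10 passed the filter on low counts, as did 14405 genes in all. They were followed in bulk RNA sequencing of group 2 innate lymphoid cells (ILC2s) sorted from the mouse pancreas, in 4 libraries of the PBS group (titled naïve) and 5 of the IL-33 group.

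Mice of the strain labelled C57BL6/J received either PBS or 200 ng of the cytokine IL-33 on days 0 and 1, and the pancreas was taken on day 5. No transgene or deletion is given for either group, and age and sex are not stated in the labels. The sort kept living cells that carried CD45 and KLRG1 and lacked CD3, B220 and lineage markers. The design text counts the groups the other way round (5 PBS, 4 IL-33); the sample titles and the table's column names were followed. The labels do not tie the libraries to individual mice, so the p-values below cover the spread from library to library, which may be partly technical.

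BCL2 family proteins decide whether the outer membrane of the mitochondrion stays intact. BAX and BAK form pores in that membrane and let cytochrome c out, which starts the caspase cascade, while BCL2, BCL-XL (encoded by Bcl2l1), MCL1 and A1 (encoded by the Bcl2a1 genes) hold BAX and BAK in check. BH3-only proteins such as BIM (Bcl2l11), PUMA (Bbc3) and NOXA (Pmaip1) bind the protective members and relieve that check; in lymphocytes, cytokines of the common gamma chain are known to sustain the protective members and to restrain BIM.

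Library totals ranged from 14216976 to 21020023 counts, and levels are given as CPM, the usual scaling of a gene's count to the size of its library. Pancreatic acinar markers (15 genes) made up 31.5% of the counts of PBS 4 and at most 8.95% in any other library, and the TMM factor that corrects library size for such a skew was 0.5325 in PBS 4 and 0.9901 to 1.169 in the rest. The ILC2 marker list was present throughout (13 of 13 genes tested, summed level 10380 to 13440 CPM with PBS and 11240 to 16190 CPM with IL-33), led by Gata3. In the test described below, 3 of the 13 were higher and 3 lower with IL-33. The sort marker gene Klrg1 was at 593 to 785 CPM with PBS and 1138 to 1680 CPM with IL-33. Icos was at 571 to 667 CPM with PBS and 133 to 291 CPM with IL-33. Erythroid markers summed to 168 to 323 CPM with PBS and to 369 to 3568 CPM with IL-33, and were highest in IL-33 1, 2 and 3 (2340, 1293 and 3568 CPM). Cd3g, of the excluded CD3 complex, was present at 221 to 342 CPM over all libraries, while Cd3e, Cd3d and Trac reached at most 9.32 CPM. Of the B cell markers, which the B220 gate should exclude, Ighm was lower with IL-33 (413 to 553 CPM against 105 to 306 CPM) and Cd79b higher (2.39 to 24.3 CPM against 57.9 to 99.0 CPM), while Cd79a and Ms4a1 stayed at or under 1.77 CPM. In bulk libraries, a change in the share of cells that carry a transcript and a change in the transcript per cell cannot be told apart.

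All CPM values are after TMM scaling, and changes are given as log2 fold changes of IL-33 over PBS with their standard error (SE). The test was edgeR's quasi-likelihood F-test over all 14405 genes, two-sided, with Benjamini-Hochberg adjustment and a threshold of 0.05. Of the 10 members, 8 passed it, 5 higher and 3 lower with IL-33, where 25.2% of all genes tested passed (13.7% higher and 11.6% lower). The same 8 members were those whose PBS and IL-33 libraries did not overlap, which held for 26.1% of all genes (15.3% higher and 10.8% lower). The median size of the change, regardless of sign, was 1.32 on the log2 scale over the members and 0.62 over all genes. Bcl2a1b and Bcl2a1d are near-identical copies that moved together, so their calls are not separate observations. The members were chosen with earlier results of these data known, so these contrasts with all genes are not an independent test.

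**Figure D1:**
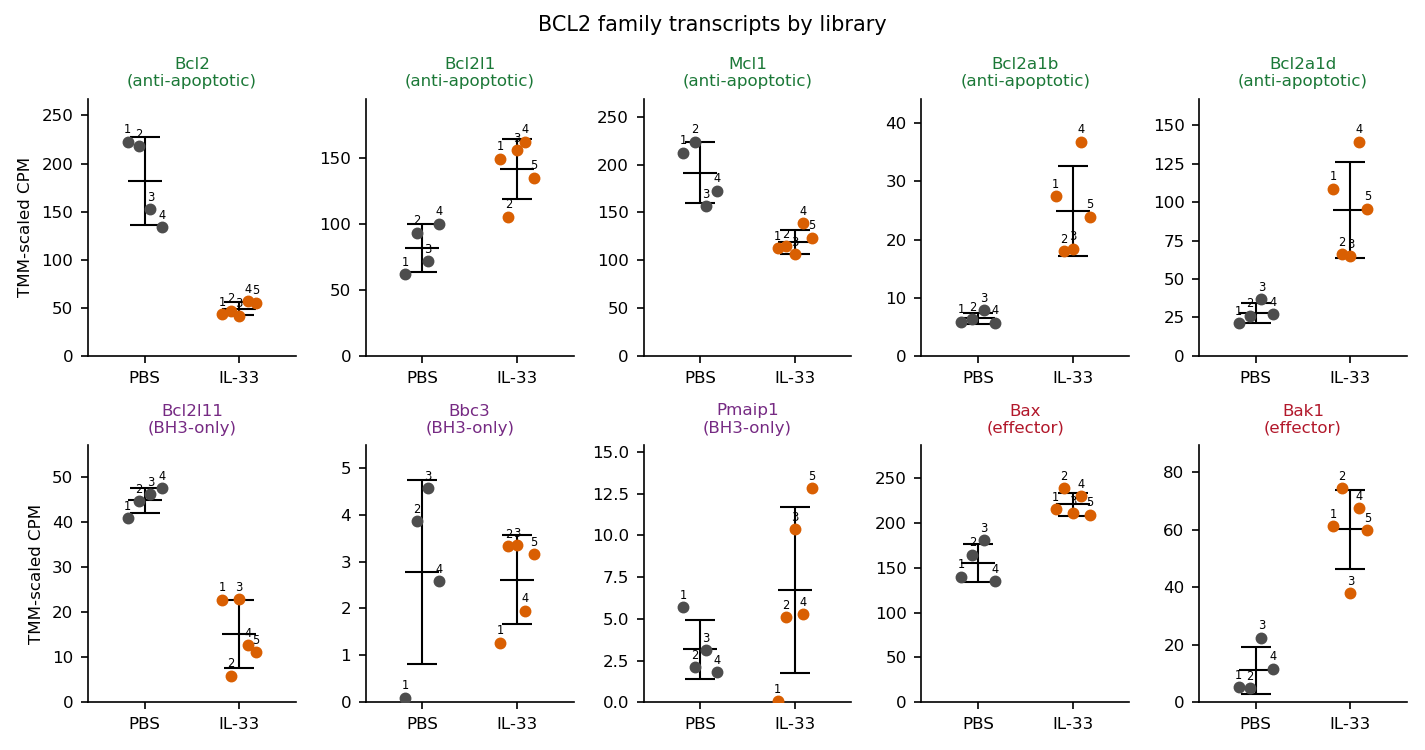
TMM-scaled CPM (linear axes from 0, each with its own range) of the 10 members, by group. Each point is a library, with its replicate number beside it, and the bars give the mean and SD of 4 PBS and 5 IL-33 libraries. The groups are apart in 8 panels and overlap for Bbc3 and Pmaip1.

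The 5 anti-apoptotic members all passed the test but in opposite directions. Bcl2 and Mcl1 fell, while Bcl2l1 and both Bcl2a1 genes rose.

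Bcl2, the founding member of the family, lies on the minus strand at chr1:106538178-106714274 (GRCm38). It stood at 223, 218, 153 and 134 CPM in PBS 1 to 4 and at 43.6, 47.0, 41.9, 56.8 and 55.3 CPM in IL-33 1 to 5. The lowest PBS library was thus far above the highest IL-33 library. Bcl2 fell 3.72-fold, from 182 ± 45.4 CPM over 4 PBS libraries to 48.9 ± 6.78 CPM over 5 IL-33 libraries (mean ± SD here and below; log2 -1.89, SE 0.18, adjusted p = 1.6e-04), the smallest adjusted p among the members. It passed the test in all 21 alternative analyses, with log2 changes from -2.03 to -1.45. An antisense gene, D630008O14Rik, shares 558 exon bases with Bcl2, and reads of the shared part cannot be told apart where strand is not stated; its mean level was 3.46 CPM with PBS and 0.19 CPM with IL-33.

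Mcl1 (chr3:95658788-95663176, plus strand) encodes a short-lived protector whose protein is controlled by steady destruction. It was measured at 213, 224, 157 and 173 CPM with PBS and at 113, 115, 106, 139 and 124 CPM with IL-33, again without overlap. Mcl1 fell 1.61-fold, from 192 ± 32.0 to 119 ± 12.5 CPM (log2 -0.68, SE 0.13, adjusted p = 0.00546). The call did not hold with library size alone in place of TMM (log2 -0.59, adjusted p = 0.202), nor without IL-33 1, 2 and 3 (log2 -0.54, adjusted p = 0.134).

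Bcl2l1 (chr2:152780668-152831728, minus strand), whose main product is BCL-XL, moved the other way. PBS libraries held 61.8, 93.2, 71.9 and 100.1 CPM, and IL-33 libraries held 149, 105, 155, 162 and 135 CPM, so the highest PBS value lay just under the lowest IL-33 value. Bcl2l1 rose 1.73-fold, from 81.8 ± 17.9 to 141 ± 22.5 CPM (log2 0.79, SE 0.18, adjusted p = 0.0111). Erythroid cells are known to depend on BCL-XL, and all 4 erythroid markers that could be tested were higher with IL-33. Over IL-33 1 to 5 the erythroid sum was 2340, 1293, 3568, 540 and 369 CPM, beside the Bcl2l1 values given above. The part of erythroid cells in the Bcl2l1 change was not tested. Without IL-33 1, 2 and 3 the Bcl2l1 change was 0.87 on the log2 scale with an adjusted p of 0.0661, and with a gene length and GC trend removed it was 0.70 (adjusted p = 0.0525).

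The mouse carries several near-identical Bcl2a1 genes for the A1 protein, a protector known as a target of NF-kappaB in lymphocytes. Bcl2a1b (chr9:89199209-89207827, plus strand) and Bcl2a1d (chr9:88723285-88731914, minus strand) are members, and the further copies Bcl2a1a (chr9:88956900-88962419, plus strand) and Bcl2a1c (chr9:114330135-114330578, plus strand) were counted beside them. The first 120 coding bases of the 3 copies with the same coding length are shown because they set how well reads can be assigned to a copy. They come from GENCODE M21 transcripts on GRCm38, 5′ to 3′ on the coding strand, with capitals at positions where the 3 copies are not all alike.
Bcl2a1a, chr9:88957051-88957170: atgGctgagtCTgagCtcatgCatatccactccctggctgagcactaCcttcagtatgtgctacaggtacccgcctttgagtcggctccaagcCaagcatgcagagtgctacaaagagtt
Bcl2a1b, chr9:89199360-89199479: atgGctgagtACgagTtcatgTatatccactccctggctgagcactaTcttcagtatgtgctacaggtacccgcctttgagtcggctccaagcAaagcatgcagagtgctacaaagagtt
Bcl2a1d, chr9:88731600-88731719: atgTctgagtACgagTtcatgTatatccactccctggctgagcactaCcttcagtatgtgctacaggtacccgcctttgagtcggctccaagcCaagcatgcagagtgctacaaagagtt

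Over the whole coding sequence of 519 bases, 12 positions were not alike in the 3 copies, 7 of them in this first stretch. Identity was 97.9% between Bcl2a1a and Bcl2a1b, 98.7% between Bcl2a1a and Bcl2a1d, and 98.8% between Bcl2a1b and Bcl2a1d. Of all windows of 150 bases, the read length, 85.8% of the Bcl2a1b transcript and 69.7% of the Bcl2a1d transcript occur in no other copy. These shares fall with shorter windows, to 56.5% and 32.4% at 75 bases and to 26.7% and 10.9% at 31 bases. The split of reads between the copies is therefore less certain than their sum, and the annotated gene Gm29094, which shares 401 exon bases with Bcl2a1b, has no row of its own in the count table.

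Bcl2a1b was measured at 5.89, 6.33, 7.90 and 5.73 CPM with PBS and at 27.5, 18.1, 18.5, 36.8 and 24.0 CPM with IL-33. Bcl2a1d was measured at 21.4, 26.2, 36.8 and 27.2 CPM with PBS and at 109, 66.3, 64.9, 139 and 95.8 CPM with IL-33. In both genes IL-33 4 was the highest library, IL-33 2 and 3 were the lowest of their group, and every IL-33 library lay above every PBS library.

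Bcl2a1b rose 3.86-fold, from 6.46 ± 0.994 to 25.0 ± 7.72 CPM (log2 1.95, SE 0.27, adjusted p = 9.6e-04). Bcl2a1d rose 3.41-fold, from 27.9 ± 6.46 to 95 ± 31.1 CPM (log2 1.77, SE 0.27, adjusted p = 0.00153). Both passed the test in all 20 alternatives that tested the copies singly. The copies outside the member list gave like values: Bcl2a1a went from 15.1 ± 2.83 to 51.3 ± 17.7 CPM (log2 1.77, adjusted p = 0.00189) and Bcl2a1c, the faintest, from 1.06 ± 0.387 to 3.50 ± 0.999 CPM (log2 1.71, adjusted p = 0.0301).

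Summed over the 4 copies, Bcl2a1 rose 3.46-fold, from 50.5 ± 10.3 to 175 ± 57.4 CPM (log2 1.79, SE 0.26, adjusted p = 0.00113). The sum does not depend on how the counted reads were split among the copies. Whether reads common to several copies were counted at all is not stated, which bears on the level of the sum. The copies kept similar proportions in both groups. Bcl2a1d supplied 53.1 to 56.9% of Bcl2a1 counts with PBS and 53.1 to 55.5% with IL-33, and Bcl2a1b supplied 11.6 to 14.6% and 13.5 to 15.1%.

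A1 is also abundant in myeloid cells, so their markers are given here. The 4 neutrophil markers with a row (S100a8, S100a9, Csf3r and Retnlg) stayed under 1 CPM in every library, and their sum was 0 in all PBS libraries and at most 0.762 CPM with IL-33. Macrophage and monocyte markers other than Ccr2, a gene that led that list at 911 to 2421 CPM, summed to 13.4 to 31.7 CPM with PBS and 12.9 to 63.9 CPM with IL-33. The 2 mast cell and basophil markers with a row, Cpa3 and Fcer1a, summed to 15.4 to 45.8 CPM with PBS and 94.2 to 357 CPM with IL-33. Dendritic cell markers (Xcr1 and Zbtb46) summed to 11.3 to 17 CPM with PBS and 27.3 to 49.2 CPM with IL-33, and eosinophil markers (Ccr3 and Ear2) to 0 to 8.87 CPM and 12.9 to 30.3 CPM. IL-33 4, the library highest in Bcl2a1b and Bcl2a1d, was also the highest for the neutrophil, macrophage (without Ccr2), dendritic cell and eosinophil sums, while the mast cell and basophil sum was highest in IL-33 3, where Bcl2a1d was the lowest of its group. The part of these markers in the result was not tested.

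The upstream sequence of the Bcl2a1 copies is shown because these genes moved together. The stretches below lie before the transcription start in the RefSeq promoter table (GRCm38), are written 5′ to 3′ on the gene's strand, and carry in capitals the letters TGANTCA, the pattern of AP-1 sites.
Bcl2a1a, chr9:88956780-88956839: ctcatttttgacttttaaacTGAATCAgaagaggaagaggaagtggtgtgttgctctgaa
Bcl2a1b, chr9:89199089-89199148: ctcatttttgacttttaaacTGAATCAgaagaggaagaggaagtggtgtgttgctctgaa
Bcl2a1d, chr9:88731925-88731984: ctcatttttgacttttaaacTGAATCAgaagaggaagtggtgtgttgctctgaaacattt
Bcl2a1c, chr9:114329885-114329944: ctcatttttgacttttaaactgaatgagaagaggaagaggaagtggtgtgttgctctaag

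The match began 120, 164 and 114 bases before the start in Bcl2a1a, Bcl2a1b and Bcl2a1d. These copies share nearly all letters of the stretch, so their matches are not separate observations, and Bcl2a1c, which rose as well, had no match in its window. Searched on both strands of 32851 windows of 250 bases, TGANTCA was found in 6.75%. The ETS letters GAGGAAGT, a few bases downstream in the same stretch and not overlapping TGANTCA, were found in all 4 copies and in Bak1, against 2.44% of windows. A match of letters is a description and does not show a bound site.

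Among the BH3-only members, 1 of 3 passed the test. Bcl2l11 (chr2:128126038-128162547, plus strand) encodes BIM, which binds all the protective members. It was even across PBS libraries at 40.8, 44.5, 46.1 and 47.4 CPM, and stood at 22.8, 5.94, 22.9, 12.6 and 11.2 CPM with IL-33. Every IL-33 library was below every PBS library, with IL-33 1 and 3 the highest of their group and IL-33 2 the lowest. Bcl2l11 fell 2.96-fold, from 44.7 ± 2.85 to 15.1 ± 7.51 CPM (log2 -1.57, SE 0.36, adjusted p = 0.0109).

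Bcl2l11 is a known target of FOXO factors. The start of the 250-base RefSeq promoter window (GRCm38, plus strand) in which the FOXO letters GTAAACA matched is shown, with those letters in capitals.
Bcl2l11, chr2:128125788-128125862: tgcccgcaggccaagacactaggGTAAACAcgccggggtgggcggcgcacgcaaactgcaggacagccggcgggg

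This match began 227 bases before the start, and GTAAACA was found in 3.17% of all windows on either strand, Bbc3 being a further gene with a match. At the transcript level Foxo1 stood at 25.9 ± 2.22 CPM with PBS and 21.7 ± 8.0 CPM with IL-33 (log2 -0.26, adjusted p = 0.576), and Foxo3 at 43.0 ± 7.18 and 29.9 ± 5.98 CPM (log2 -0.52, adjusted p = 0.0652); neither passed the test, and both were chosen for mention after their values were seen.

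Bbc3 (chr7:16308393-16318205, plus strand) encodes PUMA, a mediator of p53-dependent death. It was faint: 0.10, 3.86, 4.56 and 2.58 CPM with PBS, the first from 2 counts, and 1.27, 3.33, 3.35, 1.95 and 3.15 CPM with IL-33. The groups overlapped, and the log2 change was -0.09 (SE 0.81, adjusted p = 0.949). The sign of that change depended on the analysis, from -0.76 to 1.00 over the alternatives, and none of these passed the test.

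Pmaip1 encodes NOXA, which binds MCL1 and A1. Its levels were 5.69, 2.11, 3.14 and 1.81 CPM with PBS and 0.06, 5.11, 10.4, 5.29 and 12.8 CPM with IL-33, with a single count in IL-33 1. The groups overlapped and the log2 change of 1.07 (SE 0.95) did not pass the test (adjusted p = 0.446). With SE values of 0.81 and 0.95 on the log2 scale, changes of Bbc3 and Pmaip1 of the size seen in Bcl2l1 or Mcl1 were not detectable here.

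Both effectors rose. Bax (chr7:45461697-45466898, minus strand) was measured at 140.0, 165, 181 and 135 CPM with PBS and at 215, 238, 211, 230.0 and 209 CPM with IL-33. Its groups did not overlap, and the spread within each was small. Bax rose 1.42-fold, from 155 ± 21.5 to 220.4 ± 12.9 CPM (log2 0.51, SE 0.11, adjusted p = 0.00955), the smallest change among the members that passed. This direction depended on the processing: with a gene length and GC trend removed the log2 change was -0.28 (adjusted p = 0.363), and the call was also lost with library size alone (0.61, adjusted p = 0.174) and without IL-33 1, 2 and 3 (0.51, adjusted p = 0.106). The annotated same-strand gene Gm45808 shares 192 exon bases with Bax and has no row of its own in the count table.

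Bak1 (chr17:27019810-27029009, minus strand) encodes BAK, the effector that resides at the mitochondrion and is held by MCL1, BCL-XL and A1. PBS libraries held 5.28, 4.88, 22.4 and 11.7 CPM and IL-33 libraries held 61.3, 74.4, 37.9, 67.5 and 59.8 CPM. PBS 3 was the highest of the controls and IL-33 3 the lowest of the treated group, and the groups did not overlap. Bak1 rose 5.42-fold, from 11.1 ± 8.20 to 60.2 ± 13.7 CPM (log2 2.44, SE 0.47, adjusted p = 0.00486), the largest change among the members. Without IL-33 1, 2 and 3 it was 2.53 on the log2 scale with an adjusted p of 0.0575. The opposite-strand gene Ggnbp1, which overlaps Bak1 exons, had a mean of 0.42 CPM with PBS and 0.40 CPM with IL-33.

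**Figure D2:**
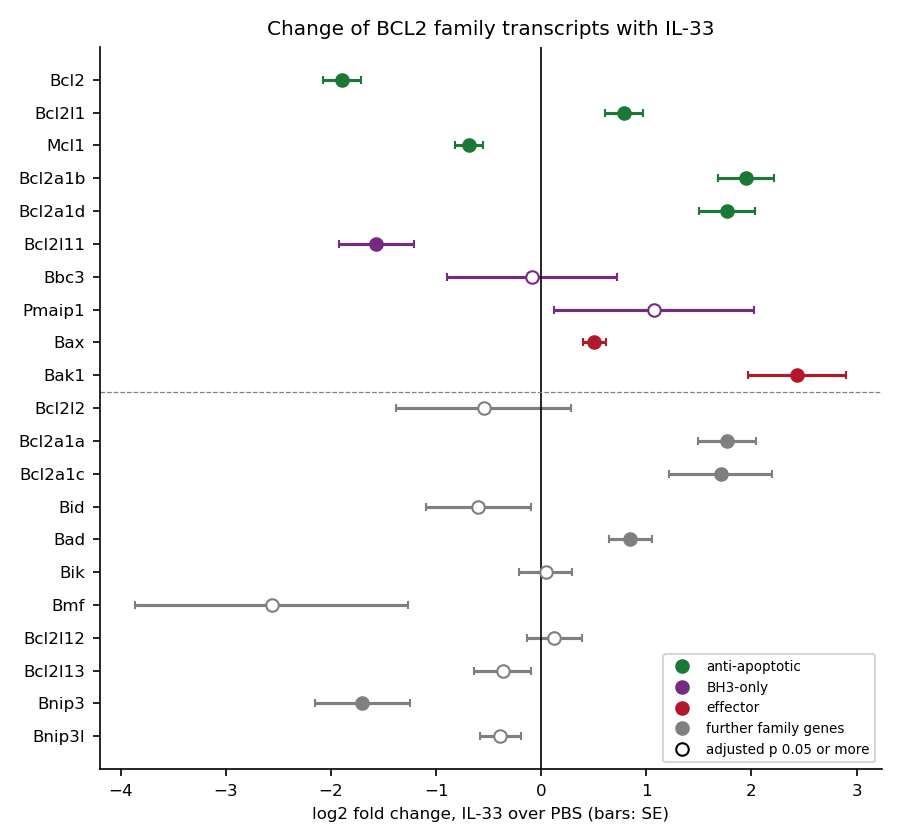
Log2 fold change (IL-33 over PBS, x axis) with its SE for the 10 members (above the dashed line, coloured by role) and 11 further family genes that were tested (grey, below). Filled points passed the adjusted p threshold of 0.05; Bak1 at 2.44 and Bcl2 at -1.89 are the outermost members.

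Levels of different genes are comparable only per length. On a scale of counts per union exon length, set to the same total in each library (mean ± SD), Bax was the highest member in every PBS library (215 ± 92.2), followed by Mcl1 (124 ± 60.7) and Bcl2a1d (68.6 ± 28.8). Bcl2 (45.3 ± 24.6) and Bcl2l1 (36.9 ± 14.6) came next and did not differ beyond their spread, ahead of Bcl2a1b (17.2 ± 7.14), Bcl2l11 (11.8 ± 4.27) and Bak1 (9.23 ± 7.82). PBS 4 was the lowest of its group on this scale for every member except Bbc3, in the library with 31.5% of its counts from acinar markers. Bbc3 (2.78 ± 2.51) and Pmaip1 (2.7 ± 2.02) were last. The third place of Bcl2a1d depended on the length used: by the longest transcript, Bcl2a1d (55.5 ± 23.0), Bcl2l1 (53.3 ± 20.7) and Bcl2 (46.6 ± 25.1) all ranged over ranks 3 to 5.

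With IL-33, Bax (293 ± 24.6) and Bcl2a1d (230 ± 72.0) shared the top by union exon length and were not separated by their spread. By the longest transcript, Bax (340 ± 26.8) ranked 1 and Bcl2a1d (186 ± 58.3) ranked 2 in every IL-33 library. Mcl1 (73.3 ± 10.5), Bcl2l1 (64.5 ± 10.1), Bcl2a1b (63.8 ± 18.6) and Bak1 (52.4 ± 12.4) formed a group of like level, although by the longest transcript Bcl2l1 (93.1 ± 14.4) ranked 3 in every IL-33 library. Bcl2 (11.3 ± 2.21) ranked 7 of 10 in every IL-33 library, above Pmaip1 (5.40 ± 4.27), Bcl2l11 (3.88 ± 1.80) and Bbc3 (2.62 ± 1.06).

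The makeup of the anti-apoptotic transcripts was described as the share of Bcl2, Mcl1, Bcl2l1 and the 4 Bcl2a1 copies in their length-scaled sum within each library, a quantity that does not depend on the scaling between libraries. Bcl2 supplied 9.97 to 16.3% of that sum with PBS and 1.54 to 2.49% with IL-33. Mcl1 went from 29.3 to 41.8% down to 10.3 to 16.3%. Bcl2a1 supplied 32.9 to 50.1% with PBS and 68.0 to 79.1% with IL-33, so it was the main part of the sum in every IL-33 library. The share of Bcl2l1 overlapped between the groups, at 9.04 to 14.9% and 8.99 to 15.6%, although its CPM rose. By the longest transcript the Bcl2l1 shares were larger, 14.5 to 23.3% and 14.9 to 24.7%, and still overlapped, and Bcl2a1 supplied 29.5 to 45.2% with PBS and 60.3 to 73.6% with IL-33.

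**Figure D3:**
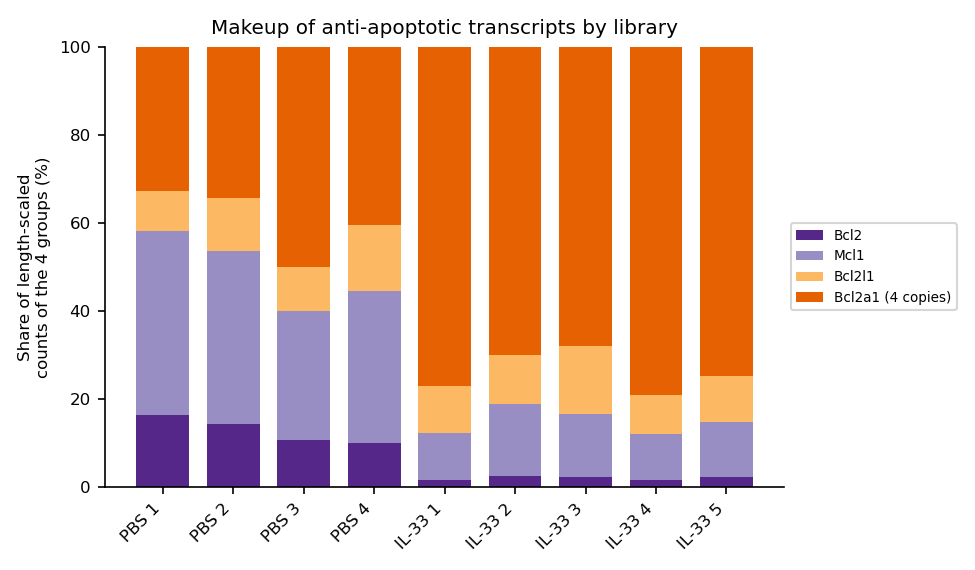
Share (%, y axis) of Bcl2, Mcl1, Bcl2l1 and the 4 summed Bcl2a1 copies in their length-scaled counts, 1 stacked bar per library. Bcl2a1 fills 68.0 to 79.1% of each IL-33 bar and 32.9 to 50.1% of each PBS bar.

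Ratios between members within a library show how the pairs moved against each other; they combine the changes given above and were not tested. On the level scaled by union exon length, Bcl2l1 over Bcl2 was 0.554 to 1.5 with PBS and 4.48 to 7.4 with IL-33. Bax over Bak1 narrowed from 12.3 to 51.5 with PBS to 4.89 to 8.5 with IL-33. By the longest transcript, Bcl2l1 over Bcl2 was 0.777 to 2.1 with PBS and 6.28 to 10.4 with IL-33. Bax over Bak1 was then 17.5 to 73.1 with PBS and 6.95 to 12.1 with IL-33. Both pairs were apart in all libraries by either length.

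Set against Bcl2l11, the transcript of the broad antagonist BIM, the protectors moved to different extents. The log2 ratios that follow are by union exon length. The log2 ratio of Bcl2l1 to Bcl2l11 was 1.41 to 1.89 with PBS and 3.52 to 4.96 with IL-33, and that of Bcl2a1d to Bcl2l11 was 2.28 to 2.89 and 4.72 to 6.70, without overlap. The log2 ratio of Bcl2 to Bcl2l11 overlapped between the groups, at 1.31 to 2.26 and 0.68 to 2.79, as both transcripts fell. The log2 ratio of Mcl1 to Bcl2l11 overlapped too, at 3.0 to 3.61 with PBS and 3.45 to 5.5 with IL-33, where IL-33 2, the library lowest in Bcl2l11, gave the highest value. The median of this ratio was 3.33 with PBS and 4.69 with IL-33, and that of Bcl2 to Bcl2l11 was 1.82 and 1.98.

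**Figure D4:**
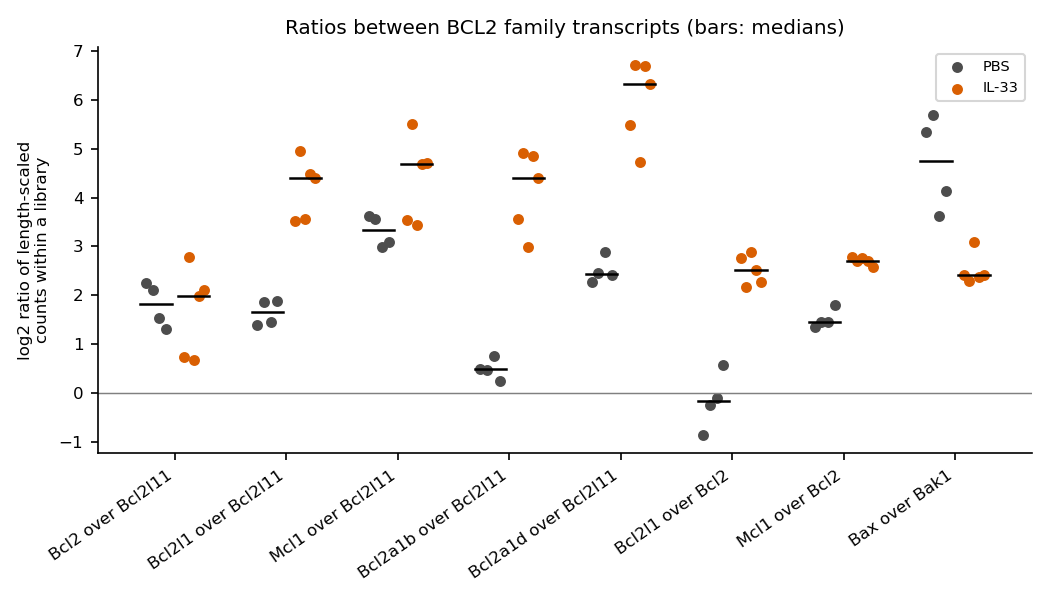
Log2 ratio of length-scaled counts (y axis) for 8 pairs of members, 1 point per library (grey PBS, orange IL-33) with the group median as a bar. The groups overlap for Bcl2 over Bcl2l11 and Mcl1 over Bcl2l11 and are apart for the other 6 pairs.

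Of 16 further BCL2 family genes listed, 14 had a row and 11 passed the filter. Of these 11, 4 passed the test (36.4%, against 25.2% over all genes), 3 higher and 1 lower. The median log2 change of the list was -0.37 against -0.05 over all genes. Bcl2a1a and Bcl2a1c are among the higher calls and share sequence with the member copies. Their calls are thus not separate observations, and the 36.4% rests partly on them. Besides Bcl2a1a and Bcl2a1c, Bad rose from 36.8 ± 11.6 to 66.3 ± 4.67 CPM (log2 0.85, SE 0.20, adjusted p = 0.0136); it encodes a BH3-only protein that binds BCL2 and BCL-XL and is silenced by phosphorylation. Bnip3, a hypoxia-linked gene of mitochondrial autophagy, fell from 11.7 ± 4.67 to 3.58 ± 2.01 CPM (log2 -1.70, SE 0.45, adjusted p = 0.0225). Without PBS 1, 2 or 4 or without IL-33 1, 4 or 5, Bcl2a1c was not called, at log2 changes of 1.5 to 1.72 (adjusted p 0.0508 to 0.0693), and it lost the call in 11 alternatives in all. Bnip3 was not called without PBS 1, PBS 2 or IL-33 5, at -1.59 to -1.50 (0.0529 to 0.0674), and in 6 alternatives in all. Bad lost its call with the length and GC trend removed (0.52, adjusted p = 0.0771) and without IL-33 1, 2 and 3 (0.80, adjusted p = 0.157).

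The other 7 did not pass. The BH3-only gene Bmf was at 6.05 ± 4.50 CPM with PBS and 1.02 ± 1.12 CPM with IL-33 (log2 -2.56, SE 1.30, adjusted p = 0.18). Bid, a gene whose protein links death receptors to the mitochondrion, was at 11.3 ± 5.5 and 7.49 ± 3.74 CPM. Bik, Bcl2l2, Bcl2l12, Bcl2l13 and Bnip3l, the last the most abundant at 148 ± 31.9 and 113 ± 24.4 CPM, had log2 changes between -0.55 and 0.12.

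Downstream of the mitochondrion, 3 of 15 apoptosome and caspase genes rose and none fell (list median 0.25 on the log2 scale); the 20.0% called is below the 25.2% over all genes, of which 13.7% were higher. Parp1, a DNA repair enzyme cleaved by caspases, rose from 37.5 ± 14.1 to 72.2 ± 11.5 CPM (log2 0.95, adjusted p = 0.0195). Cycs, which encodes cytochrome c, rose from 141 ± 19.8 to 217 ± 50.4 CPM (log2 0.62, adjusted p = 0.0258). Casp8 (112 ± 31.5 and 98.6 ± 16.1 CPM) and Htra2 (37.1 ± 8.23 and 52.0 ± 11.1 CPM) did not pass. The call of Cycs was lost in 6 alternatives, among them without PBS 3 or PBS 4 (adjusted p = 0.0635 and 0.0656), and that of Parp1 was lost without IL-33 1, 2 and 3 (log2 0.97, adjusted p = 0.145).

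Inhibitors of apoptosis act on caspases and on death receptor signalling rather than at the mitochondrion. The list used here held Xiap, Birc2, Birc3, Birc6, Cflar, Naip1, Naip2, Naip5 and Naip6, and does not cover the whole family. Of these 9, all tested, 4 were lower and none higher (list median -0.73). Thus 44.4% of the list were called, against 25.2% of all genes, and 11.6% of all genes were lower. Birc3, encoding cIAP2, fell from 195 ± 41.7 to 81.5 ± 12.3 CPM (log2 -1.26, adjusted p = 7.6e-04). Birc6 fell from 148 ± 33.4 to 79.6 ± 11.5 CPM (log2 -0.90, adjusted p = 0.00529; log2 0.008 with the length and GC trend removed, and not called with library size alone, adjusted p = 0.0682, or without IL-33 1, 2 and 3, adjusted p = 0.0797). Naip5, an inflammasome sensor that belongs to this family by its sequence, fell from 79.5 ± 30.4 to 28.4 ± 7.20 CPM (log2 -1.48, adjusted p = 0.00439; 0.0520 without IL-33 1, 2 and 3). Birc2 was the remaining call, and Cflar (66.9 ± 16.5 and 63.0 ± 6.12 CPM) and Naip2 (56.0 ± 19.4 and 37.1 ± 10.9 CPM) did not pass.

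Of the mitochondrial partner genes, 3 of 9 tested rose and none fell (list median 0.15). Thus 33.3% of the list were called, against 25.2% of all genes, and 13.7% of all genes were higher. The partners called were Chchd2, at 197 ± 21.1 and 377 ± 55.7 CPM (log2 0.94, adjusted p = 0.00109), and the outer-membrane channel genes Vdac1 (log2 0.93, adjusted p = 0.0112; 0.0566 without IL-33 1, 2 and 3 and 0.0527 with the length and GC trend removed) and Vdac3 (log2 0.52, adjusted p = 0.0366; not called in 12 alternatives, among them without PBS 1, 3 or 4 or without IL-33 3, 4 or 5, adjusted p up to 0.0915). Tmbim6, encoding BAX inhibitor 1, was abundant at 1386 ± 157 and 1513 ± 296 CPM and did not pass, nor did Bag1 at 104 ± 32.3 and 102 ± 38.8 CPM.

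The list of genes known to regulate BCL2 family transcripts or proteins gave 7 lower of 26 tested and none higher (median -0.45). The 26.9% called is near the 25.2% over all genes, and 11.6% of all genes were lower. Fbxw7, part of a ubiquitin ligase that marks MCL1 for destruction, fell from 44.1 ± 9.37 to 15.9 ± 2.72 CPM (log2 -1.47, adjusted p = 0.00104). Rela, an NF-kappaB subunit, fell from 255 ± 64.3 to 108 ± 20.8 CPM (log2 -1.24, adjusted p = 0.00235; 0.0562 without IL-33 1, 2 and 3). Il7r, the receptor chain for IL-7, fell from 652 ± 140.0 to 269 ± 67.4 CPM (log2 -1.28, adjusted p = 0.00306), and Pim1, Il2rg, Il2ra and Huwe1 were the further calls; without PBS 1 the list gave 4 calls in place of 7. Nfkb1 (894 ± 379 and 627 ± 14.2 CPM) and Atf4 (130.0 ± 27.0 and 96.5 ± 12.7 CPM) did not pass, although Atf4 did without PBS 3 (adjusted p = 0.0195).

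Leaving out any 1 library kept all 8 member calls. Without IL-33 1, 2 and 3, which leaves 2 IL-33 libraries, 4 of the 10 members passed (Bcl2, Bcl2a1b, Bcl2a1d and Bcl2l11), where 9.06% of all genes tested passed. With library size alone 6 members passed (13.7% of all genes), and with the length and GC trend removed 6 passed (20.7% of all genes). With the replicate number as a block 4 members passed (10.1% of all genes), and the calls of Bcl2l1, Mcl1, Bcl2l11 and Bax were lost.

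**Figure D5:**
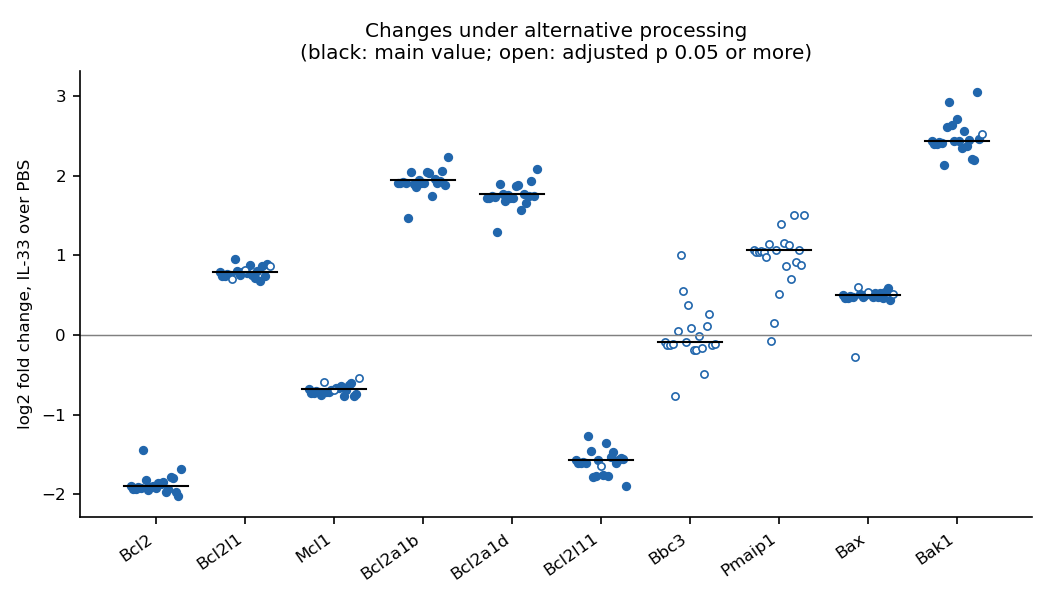
Log2 fold change (IL-33 over PBS, y axis) of each member under the alternative analyses, 1 point each, with the reported value as a black line and open points where the adjusted p was 0.05 or more. Bcl2, Bcl2a1b and Bcl2a1d have no open point, and the single point of Bax below 0 is the analysis with the length and GC trend removed.

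Further promoter letters were searched in the 11 of 12 genes (the members with Bcl2a1a and Bcl2a1c) that matched a RefSeq window, on both strands. These genes had 16 windows together, and a gene is named if any of its windows matched, while the shares are per window. NF-kappaB sites, found in 5% of all windows, occurred in Bbc3 and Bcl2l1, and the GATA letters AGATAA, found in 9.99%, occurred in Bcl2l1. The STAT letters TTCNNNGAA (7.02% of windows), the single-arm p53 site (1.63%), the CRE letters TGACGTCA (1.55%) and the E2F letters TTTCCCGC (0.895%) were in none of them. The absence of these letters from a window of 250 bases says nothing about the factors.

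The genes whose pattern over the 9 libraries was most like that of Bcl2 were found by the root mean square difference of log2(CPM + 0.5), centred on each gene's mean, among 8841 genes with a mean of at least 5 CPM. They were Resf1 (difference 0.142), Ccnl1 (0.191), Zbtb40 (0.213), Igsf5 (0.239) and Nol4l (0.24). Resf1 went from 245 ± 68.3 to 70.6 ± 13.6 CPM and Ccnl1 from 413 ± 86.4 to 130 ± 12 CPM. For Bbc3, the member with the largest adjusted p, the nearest were Tbl3 (0.32), Uevld (0.394), Bin1 (0.413), Alas1 (0.453) and Paxip1 (0.461), less close than those of Bcl2.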

How the data were processed

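Deposited by the authors were whole-number counts for each Ensembl gene and a normalized signal table; on its values, the signal is the count over a factor fixed for the library. RNA input was 5 to 15 ng and reads were paired, 150 nt, per the labels' protocols. The submitters' processing notes name STAR 2.7.7a, Salmon 1.6.0, DESeq2, Picard, Trimmomatic 0.39 and FastQC 0.11.9, with the build GRCm38.p6; the sources used here do not state which of them made the counts, the annotation or the use of strand.

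The members and all gene lists were chosen with earlier results of these data known. Symbols matched 20607 of 20732 identifiers (99.4%), from GENCODE M21 on GRCm38, which also gave coordinates and lengths. The test used R 4.3.3 and edgeR 4.0.16 on the counts (TMM scaling, filterByExpr with minimum count 10, robust quasi-likelihood fit, biological coefficient of variation 0.56). It was also run on counts simulated from the means and dispersions fitted to these data. Alternatives, 21 in all, were DESeq2 1.42.0, limma 3.58.1 (voom with sample weights, and trend on log2(deposited signal + 1)), other size factors, filters (none, or 5 CPM in 4 libraries), acinar and endocrine genes removed, a length and GC trend removed, Bcl2a1 copies summed, a replicate block, 9 fits leaving out 1 library each, and 1 without IL-33 1, 2 and 3. No 2 libraries of a group were alike within sampling noise (16 pairs).

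All members were named, all tested genes of the further family list, and in each other list the 3 genes with the smallest adjusted p past the threshold and the 2 most abundant per length not past it. An item that this rule would name is not reported here.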

Additional observations from a re-analysis of the deposited data

Results flagged for a closer look

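Across the members and named genes, 82 groups of 4 or 5 libraries were checked for 1 library standing apart from the rest, and 3 showed one; chance gives about 1 in 20. None was a member. For Bik, PBS 1 was low at 10.1 CPM while the other PBS libraries held 16.7 to 17.7 CPM. For Cycs, IL-33 4 was high at 307 CPM, the others holding 189 to 203 CPM. For Tmbim6, IL-33 3 was high at 2040 CPM, the others holding 1330 to 1440 CPM.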

How the results depend on the processing

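The 8 calls among members (5 higher, 3 lower) were kept in all 9 fits that left out 1 library, and under DESeq2, RLE size factors, both limma fits, both other filters and the removal of acinar and endocrine genes. The call of Bcl2 held in all 21 alternatives and those of Bcl2a1b and Bcl2a1d in the 20 that tested them singly. Library size alone kept 4 higher and 2 lower members (Mcl1 and Bax lost), moved the median log2 change of all genes by 0.13 and raised the higher share of all calls from 54.1 to 67.4%; it called 1976 genes in place of 3633, and 2 further family, 2 inhibitor and 3 regulator genes. The length and GC trend kept 3 higher and 3 lower members (Bcl2l1 and Bax lost) and 2 further family genes.

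Without IL-33 1, 2 and 3, which leaves 2 IL-33 libraries, 1396 genes passed (9.06%), with 2 members higher and 2 lower (Bcl2l1, Mcl1, Bax and Bak1 lost), 1 further family gene, 0 apoptosome and caspase genes, 1 inhibitor, 1 partner and 3 regulators. Leaving out 1 library at a time gave 2676 to 3695 genes, 5 to 5 members higher and 3 to 3 lower, 2 to 4 further family genes, 2 to 3 apoptosome and caspase genes, 3 to 4 inhibitors, 2 to 4 partners and 4 to 10 regulators.

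Same-numbered libraries did not deviate together (r of -0.0301, -0.0564, -0.0299 and 0.067). Such values cannot settle whether the replicate numbers pair the libraries, so a fit with the numbers as a block is given too. With a replicate block, 1457 genes passed (10.1%), with 3 members higher and 1 lower, 2 further family genes, 0 apoptosome and caspase genes, 2 inhibitors, 1 partner and 4 regulators. Under the block Bcl2l1 had an adjusted p of 0.0696, Mcl1 of 0.0555, Bcl2l11 of 0.0573 and Bax of 0.0744.

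The log2 change of some genes turned sign, and the cause was not tested. Bbc3 was at 0.046 with library size alone, 1.00 with voom, 0.55 with limma-trend and 0.37 with the block, and Pmaip1 at -0.078 with voom. With the length and GC trend removed, Bax was at -0.28 (0.51 and past the test as reported), Bik at -0.57, Bcl2l12 at -0.36, Birc6 at 0.008 (-0.90 and past the test as reported), Cflar at 0.50 (adjusted p = 0.0291) and Nfkb1 at 0.069. Without IL-33 1, 2 and 3, Bcl2l12 was at -0.33, Cflar at 0.005 and Tmbim6 at -0.026. Bag1 was at 0.003 with library size alone and 0.13 with the block, and Bik at 0.00 with RLE. Leaving out 1 library gave -0.49 to 0.26 for Bbc3, -1.22 to 0.041 for Bcl2l2, -0.11 to 0.14 for Bik, -0.30 to 0.001 for Casp8, -0.18 to 0.091 for Cflar, -0.005 to 0.21 for Tmbim6 and -0.24 to 0.14 for Bag1. Bbc3 had 2 counts in PBS 1 and 64 in PBS 2, and Pmaip1 had 1 count in IL-33 1 and 289 in IL-33 5.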
